A study of Rattus norvegicus with 9 samples.

Results

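In this series, 10 microglia and border macrophage genes were followed in the cerebral cortex of rat pups. They are the complement genes C1qa, C1qb and C1qc, the receptor genes Cx3cr1 and Csf1r, the microglial genes Aif1, Cd68 and Tyrobp, and the border macrophage genes Mrc1 and Cd163. All 10 genes were found on the array, on 11 probe sets out of 31099, taken wherever the platform annotation gave exactly 1 of these symbols. Aif1 had 2 probe sets and each of the others 1. Of the 11 probe sets, 9 were grouped as parenchymal microglia and 2 as border macrophages. The 9 are not specific to parenchymal microglia. Most tissue macrophages depend on Csf1r, and Cd68 is a gene of phagocytes.

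The tissue came from Hsd:Sprague Dawley SD rats of the F2b generation at postnatal day 4, with 1 pup taken per litter. The 3 groups were a control diet at 0 ppm, a diet with 750 ppm of 4-methylimidazole (4-MeI) and a diet with 2500 ppm of it, with 3 pups and 3 arrays in each. 4-MeI is a small nitrogen heterocycle that forms when food browns. Exposure ran through the diet of the parents from before mating and through successive pregnancies and generations, so the pups were exposed through their dams. The title also names maternal seizures, but the dams affected, the sex of the pups and any array batch are not given in the labels. Values are log2 intensities, so a difference of 1 is a doubling. In whole tissue, fewer cells of a type and less RNA per cell cannot be told apart.

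Microglia are the resident macrophages of brain tissue. They come from yolk sac progenitors, depend on signalling through the receptor Csf1r, and in the first postnatal weeks clear dying cells and prune synapses. Border macrophages live in the meninges, around vessels and in the choroid plexus, and they carry scavenger receptors such as Mrc1 and Cd163 that parenchymal microglia largely lack. C1q, the starting molecule of the classical complement cascade, is built from the A, B and C chains that C1qa, C1qb and C1qc encode, and microglia are its main source in the brain. The transcription factor PU.1, encoded by Spi1, directs much of the gene programme of both kinds of macrophage.

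The C1q genes lie side by side on chromosome 5 of the GRCr8 assembly, with C1qb from 154402276 to 154407827, C1qc from 154410845 to 154414208 and C1qa from 154417086 to 154419933. Promoters are shown for the genes whose arrays lay above all control arrays at both concentrations and that have an entry in the RefSeq promoter table of GRCr8. These were chr5:154407778-154408077 on the minus strand for C1qb, chr18:56834129-56834428 on the plus strand for Csf1r, chr17:82157475-82157774 on the plus strand for Mrc1 and chr4:158770524-158770823 on the plus strand for Cd163. Each window runs 5′ to 3′ from 250 bases before to 50 bases after the transcript start that the table uses. Capitals mark GAGGAA on either strand, a short form of the letters that PU.1 binds.
C1qb: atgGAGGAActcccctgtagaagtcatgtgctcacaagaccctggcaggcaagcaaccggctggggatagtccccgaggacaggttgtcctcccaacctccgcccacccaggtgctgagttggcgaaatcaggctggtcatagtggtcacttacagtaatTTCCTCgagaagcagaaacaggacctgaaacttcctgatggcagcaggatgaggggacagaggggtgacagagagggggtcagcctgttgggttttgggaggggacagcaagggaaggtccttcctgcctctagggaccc
Csf1r: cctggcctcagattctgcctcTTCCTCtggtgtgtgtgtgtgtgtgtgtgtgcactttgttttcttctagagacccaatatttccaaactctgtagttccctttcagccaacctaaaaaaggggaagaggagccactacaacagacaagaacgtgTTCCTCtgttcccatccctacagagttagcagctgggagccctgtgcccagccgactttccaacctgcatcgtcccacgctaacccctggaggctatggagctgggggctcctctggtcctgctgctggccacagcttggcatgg
Mrc1: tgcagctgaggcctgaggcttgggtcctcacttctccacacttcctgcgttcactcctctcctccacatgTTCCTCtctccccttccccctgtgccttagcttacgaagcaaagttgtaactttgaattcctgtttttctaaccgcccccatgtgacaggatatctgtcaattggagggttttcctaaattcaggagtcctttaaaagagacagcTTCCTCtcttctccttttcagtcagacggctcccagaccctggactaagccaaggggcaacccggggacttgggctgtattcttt
Cd163: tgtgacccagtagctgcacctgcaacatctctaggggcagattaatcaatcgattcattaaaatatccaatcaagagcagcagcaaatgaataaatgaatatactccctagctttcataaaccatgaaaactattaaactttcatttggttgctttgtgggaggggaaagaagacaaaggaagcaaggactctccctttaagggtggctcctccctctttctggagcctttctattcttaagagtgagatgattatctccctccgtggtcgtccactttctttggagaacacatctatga
GAGGAA occurred 2 times each in the windows of C1qb, Csf1r and Mrc1, and these letters are not in the window of Cd163. In C1qb the matches started 247 bases before the transcript start on the strand of the gene and 90 bases before it on the other strand. In Mrc1 they started 180 and 35 bases before it, and in Csf1r 229 and 95 bases before it, all on the other strand. The GRCr8 gene annotation starts Csf1r at 56834152 and Cd163 at 158770751, both upstream of the transcript start used here. Most of the Csf1r window, with the match 95 bases before that start, thus lies within the annotated gene. Of the 7 member genes with an entry in the table, 4 held these letters, among them Cd68 with 2 matches. Of all 33469 promoters of the table, 27.6% held them.

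No member passed the test at either concentration. In limma with Benjamini-Hochberg adjustment over 21729 probe sets, 0 of the 10 member probe sets tested had an adjusted p under 0.05 in 750 ppm minus control, where 0.0092% of all probe sets passed. The count was also 0 in 2500 ppm minus control, where 0.686% passed, and 0 in 2500 ppm minus 750 ppm, where 0.322% passed. Cd163 was not tested, because its mean over the 9 arrays, 5.41, lay below the lowest mean kept, 6.35. The dimmest member that was tested was Cd68, with a mean of 6.76. At an adjusted p under 0.1 the counts were again 0, 0 and 0, where 0.0138%, 2.69% and 0.943% of all probe sets passed. At an unadjusted p under 0.05, 4 of the 10 were higher at 750 ppm, against 5.77% of all probe sets, and 3 were higher at 2500 ppm, against 6.89%. No member was lower at that p, against 4.37% of all probe sets at 750 ppm, 9.12% at 2500 ppm and 7.33% in 2500 ppm minus 750 ppm. With array weights, C1qb (adjusted p = 0.025) and C1qc (adjusted p = 0.043) passed in limma at 750 ppm, and the count was then 2, where 340 of all probe sets passed in that fit.

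Most members were nevertheless higher in the exposed groups. Of the 11 probe sets, 9 were higher and 2 lower at 750 ppm than in controls, where 50.9% of all probe sets were higher, with a median log2 change of 0.32, against 0.0023 over all probe sets tested. All 11 were higher at 2500 ppm than in controls, where 52.2% of all probe sets were, with a median of 0.19 against 0.0070. The median at 750 ppm was 0.20 without control replicate 3 and 0.19 without 750 ppm replicate 1. The arrays of the 750 ppm group lay above every control array for 5 members, 4 of them among the 10 tested, where 7.61% of all probe sets did. The 2500 ppm arrays did so for 8 members, 7 of them tested, where 9.87% did. The count of members whose arrays were separate and lower was 0 at both, where 6.58% and 13.4% of all probe sets were. Both comparisons used the same 3 control arrays. Control replicate 3 had the lowest of the 9 values for 7 of the 11 probe sets, and 750 ppm replicate 1 the highest for 6.

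**Figure D1:**
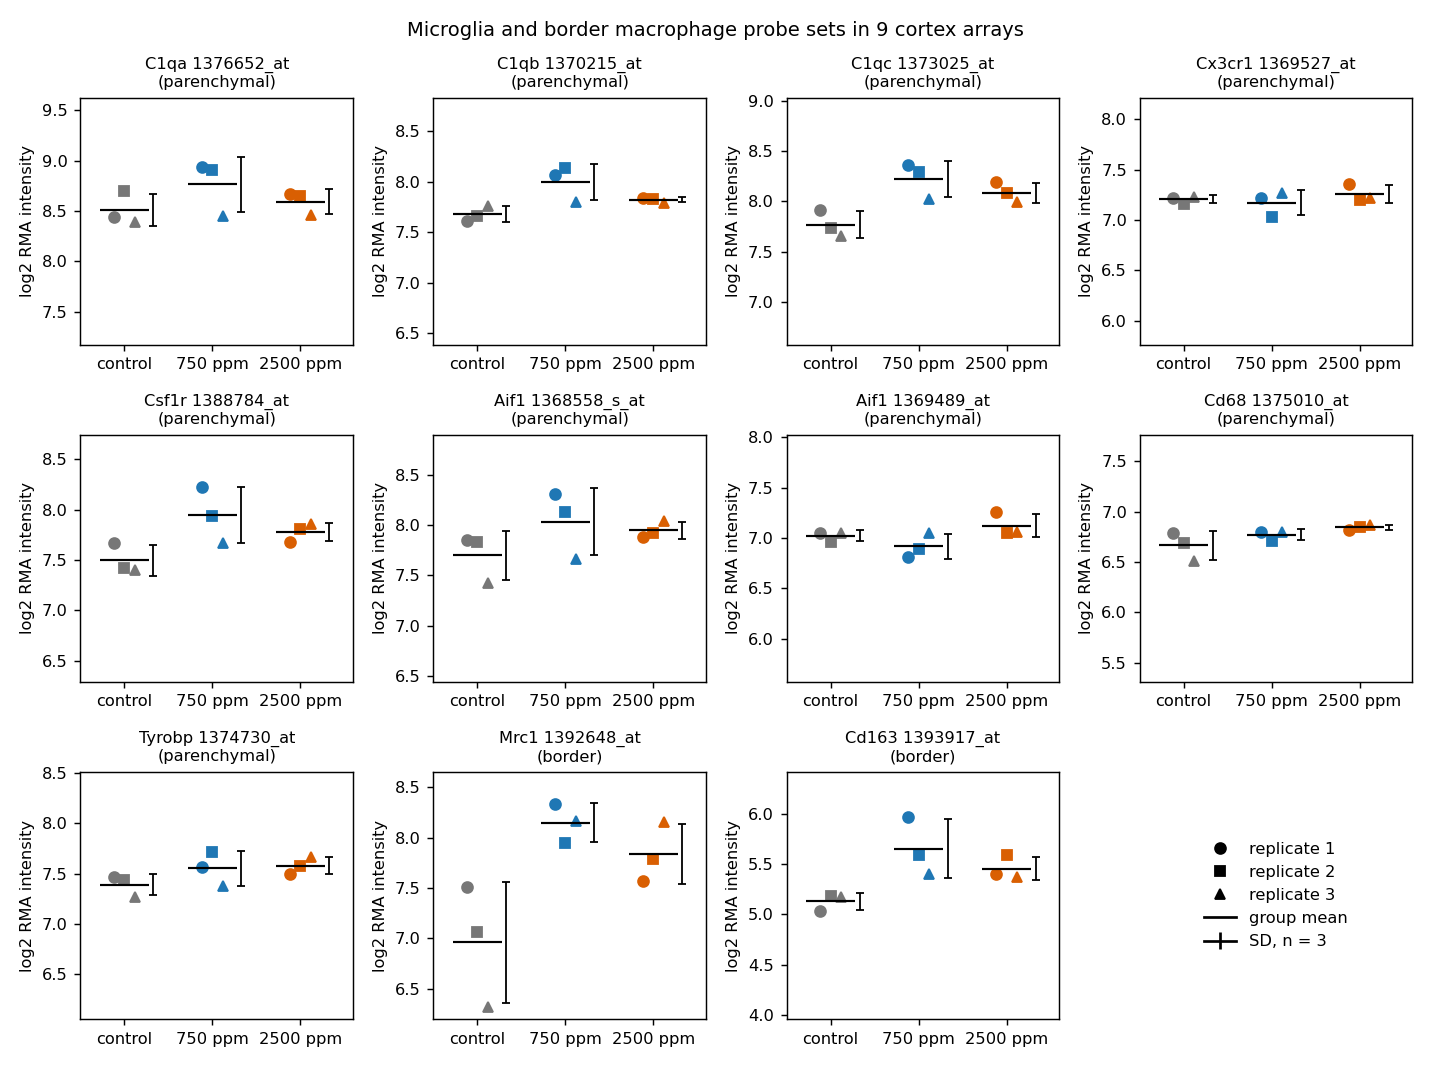
Log2 RMA intensity (y axis) of the 11 member probe sets by dietary concentration (x axis), with 1 symbol per array, a line for the group mean and a bar for the SD (n = 3). All panels span the same number of log2 units; the Mrc1 values of the controls, 6.32 to 7.51, lie below all those of both exposed groups, while the Cx3cr1 values of the 3 groups overlap.

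Mrc1 encodes the mannose receptor, which takes up glycoproteins and is a defining marker of border macrophages. It measured 7.51, 7.06 and 6.32 in the control arrays, 8.33, 7.95 and 8.16 at 750 ppm and 7.57, 7.78 and 8.15 at 2500 ppm. Every exposed array was above every control array, and the control arrays spread over more than 1 log2 unit. Mrc1 averaged 8.15 ± 0.19 at 750 ppm against 6.96 ± 0.60 in controls (SD, n = 3 each), a log2 change of 1.19 (SE 0.27, adjusted p = 0.201 in limma), or 2.28-fold. At 2500 ppm it averaged 7.84 ± 0.29, with a log2 change from control of 0.87 (SE 0.27, adjusted p = 0.162 in limma). Its log2 change had the largest size of the 11 probe sets in both comparisons with control. Without control replicate 3 the log2 change was 0.86 at 750 ppm and 0.55 at 2500 ppm. With array weights it was 0.70 at 750 ppm and 0.46 at 2500 ppm.

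Cd163 encodes the haemoglobin scavenger receptor and is the other border macrophage member. It measured 5.03, 5.18 and 5.17 in controls, 5.97, 5.59 and 5.40 at 750 ppm and 5.40, 5.59 and 5.37 at 2500 ppm. The controls were again below all exposed arrays. At this low intensity differences in RMA values are compressed, and the file gives no detection call. The log2 change without the filter was 0.52 (SE 0.13) at 750 ppm and 0.33 (SE 0.13) at 2500 ppm. After a second quantile normalization it was 0.16 at 2500 ppm.

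Among the C1q genes, C1qc stood furthest from control. It measured 7.92, 7.73 and 7.66 in controls, 8.36, 8.29 and 8.03 at 750 ppm and 8.19, 8.08 and 7.99 at 2500 ppm. No exposed array overlapped with the controls, although the lowest exposed value was close to the highest control value. C1qc averaged 8.23 ± 0.18 at 750 ppm against 7.77 ± 0.13 in controls (SD, n = 3 each), a log2 change of 0.46 (SE 0.10, adjusted p = 0.201 in limma). At 2500 ppm it averaged 8.09 ± 0.10, with a log2 change from control of 0.32 (SE 0.10, adjusted p = 0.184 in limma), or 0.20 with array weights.

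C1qb measured 7.61, 7.66 and 7.76 in controls, 8.06, 8.13 and 7.80 at 750 ppm and 7.84, 7.83 and 7.79 at 2500 ppm. Neither exposed group overlapped with the controls, but 750 ppm replicate 3 and 2500 ppm replicate 3 lay just above control replicate 3. The log2 change was 0.32 (SE 0.089, adjusted p = 0.263 in limma) at 750 ppm and 0.14 (SE 0.089, adjusted p = 0.469 in limma) at 2500 ppm. Without both control replicate 3 and 750 ppm replicate 3, left out together after the data were seen, the log2 change of C1qb at 750 ppm was 0.46 with an adjusted p of 0.037 in limma, where 71 probe sets passed over the whole table. In the same fit C1qb also passed in 2500 ppm minus 750 ppm, at -0.28 (adjusted p = 0.034), where 1137 probe sets passed.

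C1qa measured 8.44, 8.69 and 8.39 in controls, 8.94, 8.90 and 8.45 at 750 ppm and 8.67, 8.65 and 8.46 at 2500 ppm. Here the groups overlapped, and 750 ppm replicate 3 lay within the control range. The log2 change was 0.25 (SE 0.14, adjusted p = 0.559 in limma) at 750 ppm and 0.084 (SE 0.14, adjusted p = 0.800 in limma) at 2500 ppm. At 750 ppm it was 0.17 without 750 ppm replicate 1, 0.41 without 750 ppm replicate 3 and 0.39 with array weights. At 2500 ppm it lay between 0.026, without control replicate 3, and 0.18, without control replicate 2. For all 3 chains of C1q, 750 ppm replicates 1 and 2 gave the highest values of the series.

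Csf1r, the receptor on which survival of microglia and most tissue macrophages depends, measured 7.67, 7.42 and 7.40 in controls, 8.23, 7.94 and 7.67 at 750 ppm and 7.68, 7.81 and 7.86 at 2500 ppm. The exposed arrays were above the controls, by a narrow margin for 750 ppm replicate 3 and 2500 ppm replicate 1 against control replicate 1. Its log2 change was 0.45 (SE 0.13, adjusted p = 0.298 in limma) at 750 ppm and 0.28 (SE 0.13, adjusted p = 0.340 in limma) at 2500 ppm. With array weights it was 0.16 at 2500 ppm. Its ligand genes gave Il34 at 0.25 (adjusted p = 0.517 in limma) and Csf1 at -0.087 (adjusted p = 0.725 in limma) at 750 ppm. Csf1 is named here for its role, after its values were seen.

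Cx3cr1, the receptor through which microglia sense fractalkine from neurons, gave overlapping groups. It measured 7.22, 7.16 and 7.23 in controls, 7.22, 7.03 and 7.27 at 750 ppm and 7.36, 7.19 and 7.22 at 2500 ppm. The 3 groups covered much the same range. The log2 change was -0.032 at 750 ppm, with an unadjusted 95% interval of -0.20 to 0.14, and 0.052 at 2500 ppm, with an interval of -0.12 to 0.22. Control replicate 1, 750 ppm replicate 1 and 2500 ppm replicate 3 held 1 identical value of Cx3cr1 to the last digit deposited. Such a match of 3 or more arrays occurred in 14% of all probe sets. Its ligand gene Cx3cl1 was at 0.0057 at 750 ppm (adjusted p = 0.989 in limma) and -0.15 at 2500 ppm (adjusted p = 0.50 in limma).

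Aif1, which encodes the actin-binding protein Iba1 used to stain microglia, gave different values on its 2 probe sets. Probe set 1368558_s_at measured 7.85, 7.83 and 7.42 in controls, 8.31, 8.13 and 7.66 at 750 ppm and 7.88, 7.92 and 8.04 at 2500 ppm. The 2500 ppm arrays were all above the controls, whereas 750 ppm replicate 3 was below 2 control arrays. Its log2 change was 0.33 (SE 0.17, adjusted p = 0.536 in limma) at 750 ppm and 0.25 (SE 0.17, adjusted p = 0.507 in limma) at 2500 ppm. At 750 ppm it was 0.19 without control replicate 3 or without 750 ppm replicate 1, and 0.52 without 750 ppm replicate 3. At 2500 ppm it was 0.11 without control replicate 3 and 0.12 with array weights. Probe set 1369489_at ranged from 6.96 to 7.05 in controls, from 6.81 to 7.05 at 750 ppm and from 7.05 to 7.26 at 2500 ppm. On it 4 arrays held 1 identical value, 7.05, as occurred in 3.81% of all probe sets. Its log2 change was -0.10 (adjusted p = 0.672 in limma) at 750 ppm and 0.10 (adjusted p = 0.590 in limma) at 2500 ppm. It was -0.051 at 750 ppm without 750 ppm replicate 1, -0.17 without 750 ppm replicate 3, and 0.032 at 2500 ppm without 2500 ppm replicate 1.

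Cd68, a lysosomal glycoprotein gene of phagocytes, measured 6.79, 6.69 and 6.51 in controls, 6.80, 6.71 and 6.80 at 750 ppm and 6.82, 6.84 and 6.87 at 2500 ppm. The 2500 ppm arrays lay above both other groups within a narrow band. Its log2 change was 0.18 (SE 0.076, adjusted p = 0.287 in limma) at 2500 ppm and 0.10 (SE 0.076, adjusted p = 0.639 in limma) at 750 ppm. Without control replicate 3 these were 0.10 at 2500 ppm and 0.028 at 750 ppm, and with array weights 0.079 and -0.019. Tyrobp encodes the adaptor DAP12, which carries signals from receptors such as Trem2. It measured 7.47, 7.44 and 7.27 in controls, 7.56, 7.72 and 7.38 at 750 ppm and 7.49, 7.58 and 7.66 at 2500 ppm. The 2500 ppm arrays of Tyrobp lay above the controls and those at 750 ppm overlapped with them. Its log2 change was 0.16 (adjusted p = 0.583 in limma) at 750 ppm and 0.19 (adjusted p = 0.384 in limma) at 2500 ppm. At 750 ppm it was 0.10 without control replicate 3, 0.078 without 750 ppm replicate 2 and 0.25 without 750 ppm replicate 3.

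**Figure D2:**
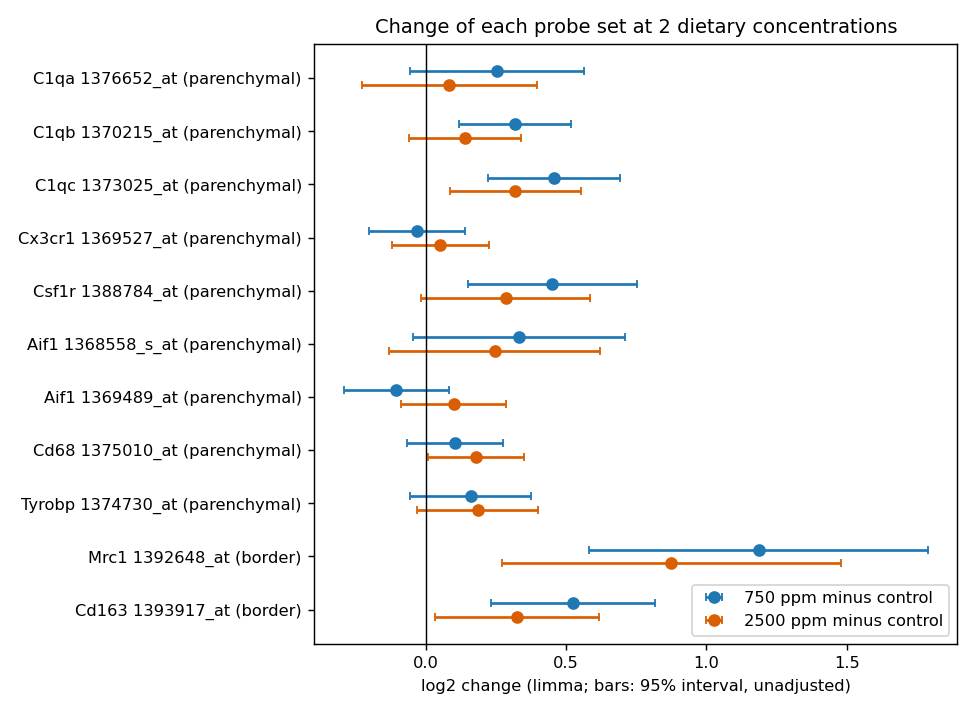
Log2 change (x axis) of each member probe set (y axis) in 750 ppm minus control and 2500 ppm minus control, with unadjusted 95% intervals from limma (n = 3 arrays per group). Mrc1 lies furthest to the right at both concentrations, at 1.19 and 0.87, and Cx3cr1 close to 0; no member tested passed after adjustment.

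Between the exposed groups, 2500 ppm minus 750 ppm gave 4 higher and 7 lower probe sets, where 47.9% of all probe sets were higher, with a median log2 change of -0.14 against -0.0063 over all probe sets tested. Median changes were -0.026 without 750 ppm replicate 1 and -0.27 without 750 ppm replicate 3. At an unadjusted p under 0.05, 1 member was higher, Aif1 on 1369489_at, against 5.25% of all probe sets. The arrays were separate and higher for 1 member, Cd68, against 7.88% of all probe sets, and separate and lower for 0, against 9.52%. Mean levels of C1qa, C1qb, C1qc, Csf1r, Mrc1, Cd163 and of Aif1 on 1368558_s_at were highest at 750 ppm. Those of Cx3cr1, Cd68, Tyrobp and of Aif1 on 1369489_at were highest at 2500 ppm. None of these differences between the exposed groups passed in limma, with adjusted p-values between 0.365 and 0.943.

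The border and parenchymal members were then set against each other array by array. Each gene was centred on its mean over the 9 arrays, on its probe set of highest mean, and averaged over Mrc1 and Cd163 or over the 8 other genes. The border mean was -0.26, -0.41 and -0.78 in controls, 0.62, 0.24 and 0.25 at 750 ppm and -0.043, 0.16 and 0.23 at 2500 ppm. All exposed arrays stood above all controls. The parenchymal mean was -0.078, -0.12 and -0.24 in controls, 0.24, 0.16 and -0.069 at 750 ppm and 0.042, 0.038 and 0.037 at 2500 ppm. It had the same order of groups over a smaller span, with 750 ppm replicate 3 level with control replicate 1 for parenchymal genes but among the higher arrays for border genes.

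The log2 change of the border mean exceeded that of the parenchymal mean by 0.60 at 750 ppm and by 0.41 at 2500 ppm against control. It was lower by 0.19 in 2500 ppm minus 750 ppm (-0.19). The difference of the 2 means averaged -0.34 ± 0.18 in controls, 0.26 ± 0.16 at 750 ppm and 0.076 ± 0.15 at 2500 ppm (SD, n = 3 each). With Mrc1 alone as the border gene, chosen after the data were seen because Cd163 is dim, the excess over control was 0.93 at 750 ppm and 0.69 at 2500 ppm. With array weights the excess of Mrc1 and Cd163 together was 0.41 at 750 ppm. No p is given for these means, since the genes were chosen with results of these data known. Border macrophages can add to the parenchymal mean, and their part in it was not tested.

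**Figure D3:**
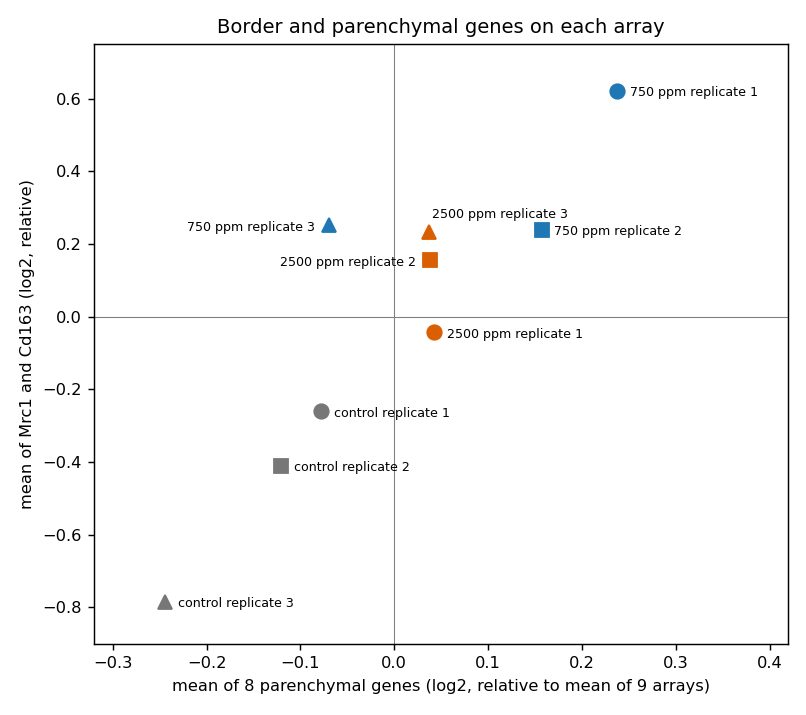
Mean of the 8 parenchymal genes (x axis) against the mean of Mrc1 and Cd163 (y axis) for each of the 9 arrays, as log2 levels relative to the mean over all arrays; colours mark the group and shapes the replicate. The 3 controls lie at the lower left, from -0.26 to -0.78 on the y axis, and 750 ppm replicate 3 lies left of the other exposed arrays.

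Other genes of both cell types were taken from lists of known markers, written with earlier results of these data known, so they are no independent support for the members. Of 15 other microglia genes measured, 13 were higher and 2 lower at 750 ppm, with a median of 0.14, and 12 were higher and 3 lower at 2500 ppm, with a median of 0.098. None of the 14 that were bright enough to test passed in limma at either concentration. At an unadjusted p under 0.05, 5 were higher at 750 ppm and 2 at 2500 ppm, against 5.77% and 6.89% of all probe sets. The genes named by their p were Olfml3, a secreted protein gene of microglia and of mesenchymal cells, at 0.70 (adjusted p = 0.329 in limma) at 750 ppm, the lysosomal membrane gene Laptm5 at 0.18 (adjusted p = 0.381), Ly86 at 0.20 and the tetraspanin gene Cd53 at 0.36. The control mean of Ly86, 6.28, lay below the lowest mean kept, 6.35. Ly86 was thus tested only through the exposed groups where it is high, and its p does not support a change of the list. Named for their role after their values were seen, the purinergic receptor gene P2ry12 averaged 8.97 ± 0.071 in controls, 9.14 ± 0.45 at 750 ppm and 9.004 ± 0.068 at 2500 ppm (SD, n = 3 each). Tmem119, another marker of parenchymal microglia, was at 0.14 at 750 ppm and 0.067 at 2500 ppm, with adjusted p-values of 0.590 and 0.740 in limma.

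Of 12 other border macrophage genes measured, 9 were higher and 3 lower at 750 ppm, with a median of 0.25, and 12 were higher at 2500 ppm, with a median of 0.27. Of these, 7 were bright enough to test and none passed in limma. At an unadjusted p under 0.05, 4 were higher at 750 ppm and 5 at 2500 ppm, against 5.77% and 6.89% of all probe sets. Lyve1, a hyaluronan receptor gene of border macrophages and also of lymphatic vessels, averaged 7.80 ± 0.86 in controls, 9.24 ± 0.056 at 750 ppm and 9.08 ± 0.12 at 2500 ppm (SD, n = 3 each). Its log2 change was 1.44 (SE 0.34, adjusted p = 0.203 in limma) at 750 ppm and 1.28 (SE 0.34, adjusted p = 0.118 in limma) at 2500 ppm. The scavenger receptor gene Stab1 was at 0.95 and 0.82, the endocytic adaptor gene Dab2 at 0.91 and 0.64, and the lectin gene Clec10a at 0.40 and 0.39, at 750 ppm and 2500 ppm against control. These 4 genes were picked by their p, so their separation from the controls is no further result. The control mean of Clec10a, 6.349, lay below the lowest mean kept, 6.352. Clec10a was thus tested only through the exposed groups where it is high, and its p does not support a change of the list. Of the 12 genes measured, 5 had arrays above all controls at each concentration, with Lyve1, Stab1, Dab2 and Clec10a among them at both. Over all probe sets tested, 7.61% and 9.87% did. These shares leave out dim probe sets, whereas the 12 genes include those too dim to test.

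The genes of the tissue in which border macrophages live were measured beside them. All 17 meningeal and fibroblast genes measured were higher at both concentrations, with medians of 1.18 at 750 ppm and 0.85 at 2500 ppm. Of them, 2 passed in limma at 2500 ppm, against 0.686% of all probe sets. Their mean relative level was -0.16, -0.65 and -1.11 in controls, 0.55, 0.39 and 0.32 at 750 ppm and 0.020, 0.27 and 0.37 at 2500 ppm. Mrc1, centred in the same way, was at -0.14, -0.59 and -1.33, at 0.68, 0.30 and 0.51, and at -0.076, 0.13 and 0.50 on the same arrays. Within the controls and within the 2500 ppm group, the arrays had the same order for both. The difference of Mrc1 and the meningeal mean averaged -0.045 ± 0.15 in controls, 0.077 ± 0.15 at 750 ppm and -0.032 ± 0.14 at 2500 ppm (SD, n = 3 each). The part of meningeal content in the level of Mrc1 beyond these values was not tested.

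Other tissue lists also differed between the arrays. All 13 endothelial genes measured were higher at both concentrations, with medians of 0.42 at 750 ppm and 0.39 at 2500 ppm. The 9 choroid plexus and ependymal genes split at 750 ppm into 3 higher and 6 lower (median -0.030). At 2500 ppm 8 rose and 1 fell (median 0.47), over a wide range from -0.014 to 5.67. The gene at 5.67 was Ttr (adjusted p = 0.0135 in limma), the only 1 of the list past the threshold. Next by their p were Sostdc1 at 3.04 and Folr1 at 1.83, with control means of 6.07 and 6.17, below the lowest mean kept. The mean relative level of the list was 1.28, 1.07 and 0.23 on the 2500 ppm arrays. It was -0.46, -0.63 and -0.45 in controls and -0.40, -0.26 and -0.37 at 750 ppm. Of 6 red blood cell genes, 5 were higher at 750 ppm (median 0.41) and 6 at 2500 ppm (median 0.52), where 2 passed in limma. Of 14 striatal genes, 12 were lower at 750 ppm (median -0.44) and all 14 at 2500 ppm (median -1.11), where 2 passed in limma. Over all probe sets tested, 0.686% passed at 2500 ppm. The striatal mean was -0.85 on 750 ppm replicate 3, against 0.59 and 0.52 on the other arrays of its group, and that array also held the lowest parenchymal mean among the exposed arrays. The 10 neuronal genes had medians of -0.016 and 0.018, and the 9 astrocyte genes of -0.0054 and -0.015. At 2500 ppm single genes ran from -1.09 (Gad2) to 0.26 (Slc17a7) among neuronal genes. Among astrocyte genes they ran from -0.33 (S100b) to 0.66 (Gfap), and none of either list passed in limma. The neuronal mean lay between 0.020 and 0.079 in controls, -0.058 and 0.11 at 750 ppm and -0.10 and -0.071 at 2500 ppm. The part of these tissues in the microglial and border macrophage values was not tested.

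Blood leukocytes were checked because they share myeloid genes. Of 13 leukocyte genes measured, 10 were too dim to test, and the monocyte receptor gene Ccr2 averaged 4.07 in controls, 4.17 at 750 ppm and 4.18 at 2500 ppm. Of the 13, 8 were higher and 5 lower at 750 ppm, with a median change of 0.027, where 50.9% of all probe sets tested were higher. At 2500 ppm 12 were higher and 1 lower, with a median of 0.11, where 52.2% were higher. The mean relative level of the list was -0.074, -0.099 and -0.029 in controls. It was -0.049, -0.077 and 0.055 at 750 ppm and 0.21, 0.028 and 0.036 at 2500 ppm. None of the 3 genes tested passed in limma. Plac8, expressed in monocytes and lymphocytes, was at 0.56 (adjusted p = 0.201 in limma) at 750 ppm and 0.41 (adjusted p = 0.145 in limma) at 2500 ppm. Ccr2 is named for its role, after its values were seen.

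**Figure D4:**
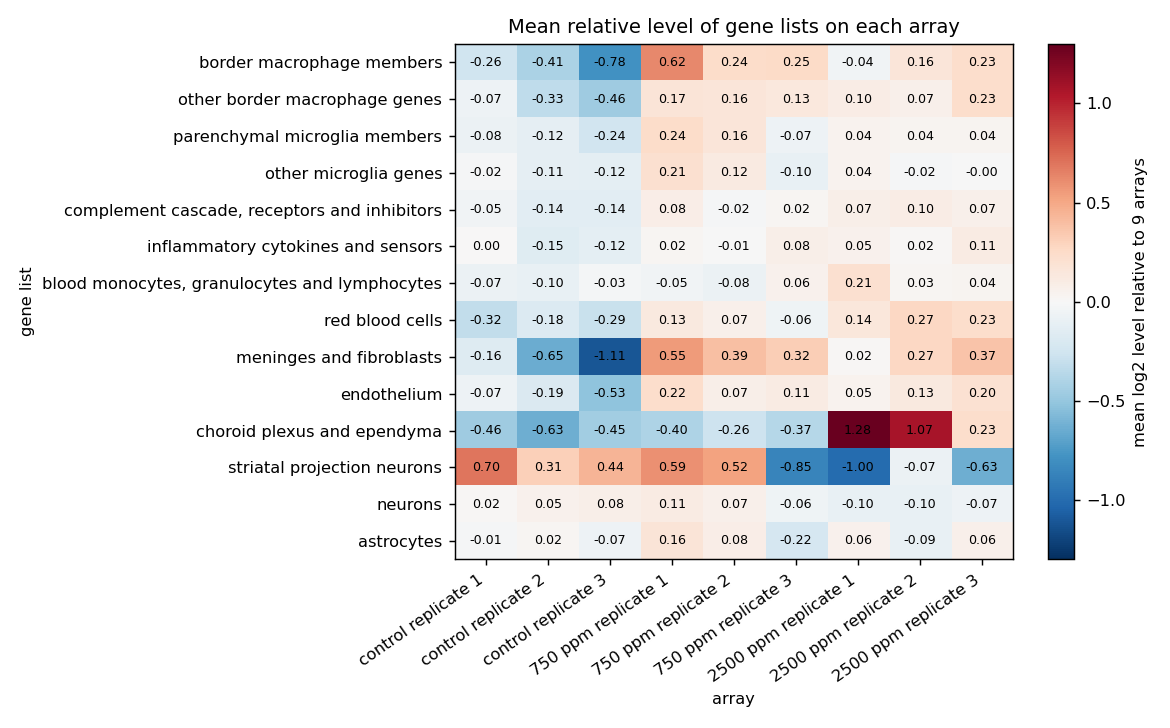
Mean log2 level of the border and parenchymal members and of other gene lists (rows) on the 9 arrays (columns), each gene relative to its own mean over all arrays, with colour from low (blue) to high (red) and the value printed in each cell. The rows of the border macrophage members and of the meningeal list share their lowest array, control replicate 3, at -0.78 and -1.11.

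Complement genes beyond C1q were measured because C1q acts with the proteases C1r and C1s under the control of the inhibitor that Serping1 encodes. Of 18 measured, 11 were bright enough to test. None passed in limma. At an unadjusted p under 0.05, 2 were higher at 750 ppm, against 5.77% of all probe sets. At 2500 ppm 5 were higher and 1 lower, against 6.89% and 9.12%. C1r averaged 7.75 ± 0.24 in controls, 8.33 ± 0.079 at 750 ppm and 8.32 ± 0.11 at 2500 ppm (SD, n = 3 each), with log2 changes of 0.58 and 0.57 (adjusted p = 0.201 and 0.0622 in limma). Serping1 was at 1.16 and 0.96, and C1s at 0.32 and 0.77, where C1s had an adjusted p of 0.058 in limma at 2500 ppm. Fibroblasts also express these genes. Cd55, which encodes an inhibitor of the C3 convertase, was at -0.048 at 750 ppm and -0.61 at 2500 ppm (adjusted p = 0.110 in limma). C3, a later step of the cascade and named for that role after its values were seen, was too dim to test, at 5.69 in controls, 5.78 at 750 ppm and 5.75 at 2500 ppm.

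Genes of phagocytosis and of inflammation were measured next. Of 17 genes of phagocytosis and of lipid-laden microglia, 12 were higher at 750 ppm (median 0.14) and 16 at 2500 ppm (median 0.24). None of the 15 tested passed in limma. At an unadjusted p under 0.05, 5 were higher at 2500 ppm, against 6.89% of all probe sets. At 750 ppm 4 were higher and 1 lower, against 5.77% and 4.37%. The lower gene was Cd9, a tetraspanin gene named after its values were seen, at -0.37 (adjusted p = 0.377 in limma). The galectin gene Lgals3 was at 0.55 (adjusted p = 0.0895 in limma) and Gpnmb at 0.42 (adjusted p = 0.101 in limma) at 2500 ppm. Of 17 inflammatory genes, 11 were higher and 6 lower at 750 ppm (median 0.045). At 2500 ppm 13 were higher and 4 lower (median 0.13). Of the 17, 10 were bright enough to test. At an unadjusted p under 0.05, 2 were higher at 750 ppm and 4 at 2500 ppm, Cd14 among them at both. The shares over all probe sets were 5.77% and 6.89%. Cd14, the co-receptor for bacterial lipopolysaccharide on myeloid cells, was at 0.62 at 2500 ppm (SE 0.10, adjusted p = 0.0381 in limma). It was the 1 gene of the list past the threshold, where 0.686% of all probe sets passed. At 750 ppm Cd14 was at 0.54 (adjusted p = 0.201 in limma). It averaged 6.59 ± 0.08 at 2500 ppm against 5.97 ± 0.22 in controls (SD, n = 3 each), and its mean over all arrays, 6.355, lay just above the filter. Its control mean lay below the lowest mean kept, so it was tested only through the exposed groups where it is high, and the call does not support a change of the list. Without control replicate 2 its adjusted p was 0.0992 and without control replicate 3 it was 0.101. It lay below the filter when any 750 ppm or 2500 ppm array was left out. Myd88, an adaptor of Toll-like receptors, was at 0.30 (adjusted p = 0.201 in limma) at 750 ppm. At 2500 ppm it was also at 0.30 (adjusted p = 0.0786 in limma). The cytokine gene Tnf was at 0.22 (adjusted p = 0.243 in limma), and Il1b, named for its role after its values were seen, was at 0.13 (adjusted p = 0.593 in limma).

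The 8 ligand and transcription factor genes measured had medians of 0.015 at 750 ppm and 0.16 at 2500 ppm. None of the 6 tested passed in limma, and 0 had an unadjusted p under 0.05 against control. Of all probe sets, 5.77% were higher and 4.37% lower at that p at 750 ppm, and 6.89% and 9.12% at 2500 ppm. Runx1, a transcription factor of blood and microglial development, was at 0.025 and 0.22 at 750 ppm and 2500 ppm. Mef2c, which cortical neurons also express, was at -0.18 and 0.17.

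The genes whose levels were most like the members over the 9 arrays were picked by Pearson correlation among 11597 other genes. These correlations describe arrays that share groups and tissue content. The 8 most like the border mean were Col4a6, Slc6a13, Crabp2, Ifitm1, Rbp4, Wls, Fmo1 and Hadha, with r between 0.978 and 0.989. Of these, Slc6a13 and Crabp2, 2 of 8, belong to the meningeal list. Slc6a13, a GABA and taurine transporter gene, was at 1.42 and 1.14, and Crabp2, a retinoic acid binding protein gene, at 1.18 and 0.84, at 750 ppm and 2500 ppm against control. The 8 most like the parenchymal mean were Etfb, Gstt3, Pltp, Snx8, Sdhc, Crybg3, Cryl1 and Dusp22, with r between 0.956 and 0.975. No gene was in both sets of 8. The median correlation over all genes was 0.13 with the border mean and 0.12 with the parenchymal mean, and the top 1% of genes began at 0.928 and 0.890.

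The arrays as a whole were similar, with median log2 values between 7.67 and 7.71 and a lowest correlation of 0.991 between any 2 arrays. Control replicate 3 stood apart from its group on the first principal component, with a score of -25.2 against -8.64 and -9.47 for the other controls. Within the 750 ppm group, replicates 1 and 2 had scores of -5.97 and -11.3, and replicate 3 had 14.98. Without both control replicate 3 and 750 ppm replicate 3, the median log2 change of the members was 0.38 at 750 ppm and 0.13 at 2500 ppm against control.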

How the data were processed

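RNA of 9 cortex samples, 1 pup each, was hybridised to Affymetrix Rat Genome 230 2.0 arrays, per the labels' protocols. The deposited values are log2 intensities per probe set, made by the authors with affy and RMA, per the submitters' processing notes, with no versions named. RMA corrects background, quantile-normalizes arrays and summarises probes, and it gives no detection call. The number of arrays limits the precision, and no depth applies.

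The 57 control probe sets and the 9313 probe sets with the lowest 30% of means (under 6.35) were left out, leaving 21729. The 3 group means were estimated together with limma 3.58.1 (statmod 1.5.0, R 4.3.3), two-sided, with Benjamini-Hochberg adjustment and a threshold of 0.05. With 3 arrays a group, the smallest exact permutation p is 0.1. Members below the filter got values and a change from a fit without it, with no call. Each pup stands for its litter, so p-values reflect variation among litters. In a simulation of 2500 ppm minus control with 21729 probe sets, 100 were given a 2-fold change and 100 a 1.5-fold change. Of the first 100 the model detected 91% and of the second 75%, and it also called 9 unchanged probe sets. These rates describe the simulated data only, so they cannot tell how many real changes were missed. In the real arrays Lyve1, with an SD of 0.86 in controls, was 2.42-fold higher at 2500 ppm and was not called.

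Symbols came from the platform annotation, updated through Entrez identifiers (GRCr8 gene table). Lists used the probe set with the highest mean per gene. From each of 14 lists beside the members, up to 4 genes were named by the smallest unadjusted p against control; exceptions are marked. The members and lists were chosen with earlier results of these data known. Alternatives were other filters, scalings, variance models, array weights, a replicate block, fits of only the groups compared and leaving out arrays.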

Additional observations from a re-analysis of the deposited data

How the results depend on the processing

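The number of member probe sets past the threshold stayed at 0 in every comparison under other filters, scalings, variance models, an adjusted p under 0.1, fits of only the groups compared and each array left out. The filter that left out the dimmest 50% removed Mrc1, Cd163, Cx3cr1, Cd68, Tyrobp and Aif1 on 1369489_at from the test. These could not pass there, so the 0 under that filter covers only the other members. It was 2 with array weights at 750 ppm, where 340 passed over the whole table. With 2 arrays left out together (control replicate 3 and 750 ppm replicate 3), an alternative chosen after seeing the data, it was 1 in 750 ppm minus control, where 71 passed, and 1 in 2500 ppm minus 750 ppm, where 1137 passed. The cause was not tested. Leaving out 1 array at a time gave a median change of the members between 0.193 and 0.418 at 750 ppm, between 0.125 and 0.243 at 2500 ppm, and between -0.272 and -0.026 in 2500 ppm minus 750 ppm; without both arrays that last median was -0.27. The excess of border over parenchymal genes was 0.41 with array weights at 750 ppm, and 0.93 and 0.69 at 750 ppm and 2500 ppm with Mrc1 alone. Leaving out 1 array gave 0.498 to 0.690 at 750 ppm and 0.312 to 0.494 at 2500 ppm. Uncalled changes near 0 turned sign: Cd68 at 750 ppm (-0.019 with array weights), Cx3cr1 at 750 ppm (-0.078 to 0.039 with 1 array left out, above 0 without 750 ppm replicate 2), and in 2500 ppm minus 750 ppm Aif1 (0.053 without 750 ppm replicate 1) and Tyrobp (-0.040 with array weights, -0.063 without 750 ppm replicate 3 or without both arrays, -0.017 without 2500 ppm replicate 3).

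Over the whole table the count past the threshold was 2 at 750 ppm (0 to 340 over the alternatives), 149 at 2500 ppm (9 to 1495) and 70 between the exposed groups (13 to 1137). The replicate numbers did not pair the arrays: the correlations of same-numbered deviations were 0.11, -0.21 and -0.084 for 750 ppm and control, 0.014, -0.067 and 0.063 for 2500 ppm and control, and -0.17, 0.31 and 0.15 for 2500 ppm and 750 ppm. With the replicate block, 0 members passed, the median changes were 0.32, 0.19 and -0.14, the border excess was 0.60, 0.41 and -0.19, and the counts over the table were 2, 122 and 36. The dim signal of Cd163 and the number of arrays limit what these values can show.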
